A study of Mus musculus with 26 samples.

Results

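The germ cells described here came from ovaries of mouse fetuses at the embryonic stage E17.5 and numbered 137 of the 1881 single cells in the series. A cell was taken when its deposited name gave the stage E17.5 and the sort gate BVSC and when its Anxa5 level was below 100 CPM, a cell's count of a gene scaled to a common total over the genes read. This left out 5 of the 142 cells in the gate. They were set against 155 germ cells of E16.5 and 95 of E18.5 that were chosen the same way. BVSC names the transgenes Blimp1-mVenus and Stella-ECFP, which every animal in these 3 groups carried. Both reporters mark germ cells, and Blimp1 and Stella are the products of Prdm1 and Dppa3. Gonads of several embryos were pooled per stage, digested with trypsin and sorted, and single cells were picked by mouth into lysate. The first day of gestation, that of the vaginal plug, was called E0.5.

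Late fetal female germ cells, the oocytes, are in prophase of the first meiotic division. Their chromosomes pair along the synaptonemal complex, breaks made by SPO11 are repaired by recombination, and the cells then arrest. In the same days they begin to make the transcription factors FIGLA, NOBOX, LHX8 and SOHLH1, which mouse oocytes need to form and keep primordial follicles around birth. Transcripts of both programs were measured at E17.5, and the 2 libraries of that stage differed in their levels of the second.

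Each E17.5 library held germ cells and cells of the Negative gate. Library 24 gave 68 germ cells and library 25 gave 69, with a median of 217443 and 216414 unique molecular identifiers (UMIs) per cell. The pooled germ cells held 7988192 UMIs in library 24 and 8219211 in library 25 over the genes read here. Pools of the other stages held 8001222 (library 20) and 6028354 (library 22) UMIs at E16.5, and 10400860 (library 6) and 2342743 (library 26) at E18.5. The cell barcode numbers name wells and not cells, and 92 of them occurred in both E17.5 libraries. Separate embryos are not named in the labels as the source of each library of a stage. The p-values below therefore reflect only how far libraries vary, and part of that variation may be technical.

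The choice of cells used Anxa5, which encodes a calcium-dependent membrane-binding protein. Kept E17.5 cells had a median of 17.1 CPM, with 32 cells at 0. The 3 highest kept cells had 81.0, 80.8 and 77.1 CPM and the 3 lowest left out had 112, 128 and 242 CPM. Kept cells of E16.5 had a median of 5.55 CPM and those of E18.5 one of 6.30 CPM. Negative-gate cells of E17.5 had a median of 579 CPM. Germ cell genes were then counted in the kept cells. Of 5 germ cell genes (Sycp1, Mael, Taf7l, Tex101 and Hormad1), all 5 reached 100 CPM in 67 of 68 cells of library 24 and in 69 of 69 cells of library 25, and the remaining cell had 4 of them. That cell, in library 24, held only 4896 UMIs of the genes read here and no Sycp1 count. A level of 100 CPM does not separate the gates. In Negative-gate cells at or above the Anxa5 limit, Sycp1 reached it in 19 of 19 (library 24) and 21 of 21 (library 25). Hormad1 did so in 5 and 13 of them. Median Sycp1 was 2752 and 2918.5 CPM in germ cells, against 538 and 531 CPM in these Negative-gate cells. For Hormad1 the medians were 1172 and 1273 CPM, against 78.9 and 119 CPM. Wt1, a gene of somatic gonad cells, reached 100 CPM in 4 of 68 cells of library 24 and in 0 of 69 cells of library 25.

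The libraries of E17.5 stood apart from each other. Among 5092 genes with at least 20 CPM in either pool, library 24 was at least 2-fold higher for 445 genes (8.74%) and at least 2-fold lower for 366 (7.19%). The share of genes at least 2-fold apart between the pools of a stage was 8.32% at E16.5, 15.9% at E17.5 and 34.9% at E18.5. Across 4827 genes, which are not independent replicates, the correlation of log2(CPM + 5) was 0.916 between libraries 24 and 25. Library 25 correlated at 0.960 and 0.955 with libraries 20 and 22 of E16.5, and at 0.834 and 0.808 with libraries 6 and 26 of E18.5. For library 24 these values were 0.919 and 0.931 with E16.5 and 0.892 and 0.891 with E18.5. Values are therefore given for each library. In pooled cells, fewer cells with a transcript and less of it per cell cannot be told apart.

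As markers of the stage, 4 genes had been picked from these same data, so their levels are a description without a test: Lhx8, a LIM homeodomain factor of oocytes, Tmc2, a transmembrane channel-like protein, Gc, the vitamin D binding protein, and Ccnb3, a cyclin of meiotic cells. Lhx8 (chr3:154306294-154330659, build GRCm38) had 71.4 and 143 CPM in the E16.5 pools, 436 and 82.5 CPM in libraries 24 and 25 of E17.5, and 624 and 847 CPM in the E18.5 pools. Library 24 lay between the other stages, and library 25 lay within the range of E16.5. Tmc2 (chr2:130195194-130264445) had 119 and 216 CPM at E16.5, 336 and 87.4 CPM at E17.5, and 340.5 and 834 CPM at E18.5. Again library 24 was close to the lower E18.5 pool and library 25 below both pools of E16.5.

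Ccnb3 (chrX:6979652-7041619) had 809 and 1062 CPM at E16.5, 865 and 1102 CPM at E17.5, and 639 and 417 CPM at E18.5. Both E17.5 pools overlapped those of E16.5 and exceeded those of E18.5. Gc (chr5:89417522-89457898) was steadier, with 719 and 808 CPM at E16.5, 754 and 694 CPM at E17.5, and 621 and 531 CPM at E18.5. Over the whole series Ccnb3 was low until E14.5, where the 4 pools averaged 58.4 CPM, and Gc averaged 16.4 CPM in them. Lhx8 averaged 7.39 CPM at E14.5, 24.1 CPM at E15.5, 107 CPM at E16.5, 259 CPM at E17.5 and 736 CPM at E18.5. The mean at E17.5 had an SD of 249.7 CPM between its 2 libraries, and those of E16.5 and E18.5 had SDs of 50.8 and 158 CPM (n = 2 each), and the E17.5 pools overlapped those of E16.5 and lay below those of E18.5. Ccnb3 averaged 936, 984 and 528 CPM at E16.5, E17.5 and E18.5, and Gc averaged 763, 724 and 576 CPM.

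**Figure D1:**
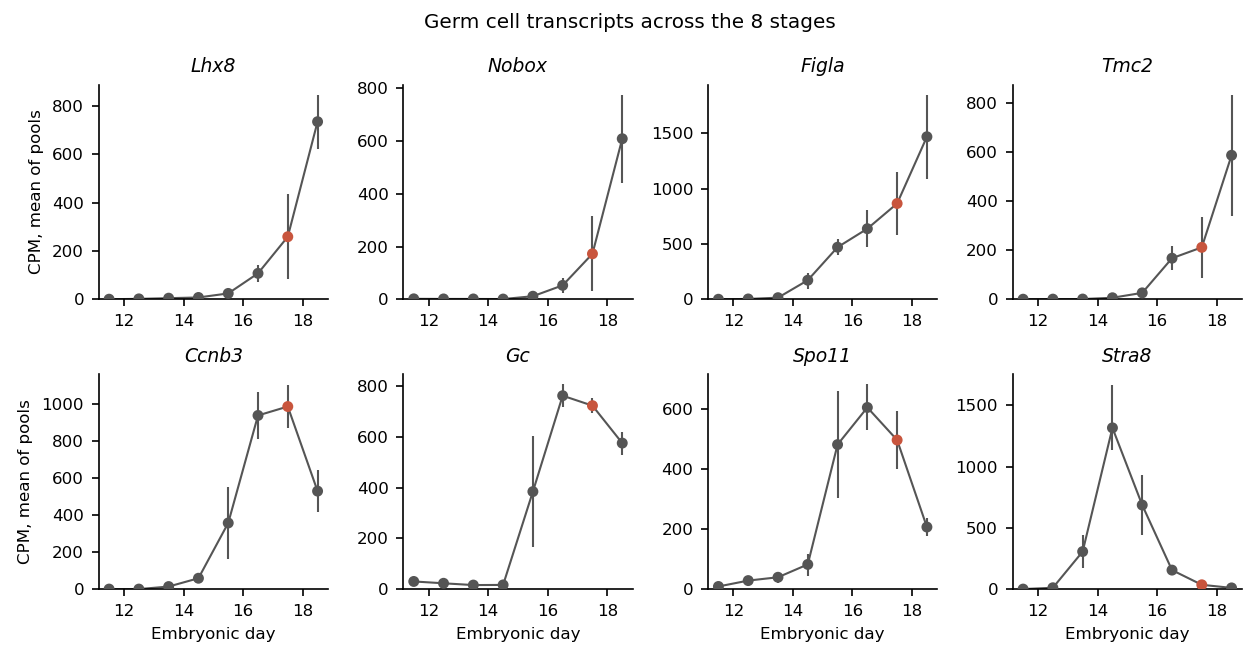
Levels of 8 genes in germ cell pools by embryonic day, in CPM, as the mean of the pools of a stage with a line from the lowest to the highest pool (4 pools at E14.5, 2 at each other stage) and E17.5 in red. Lhx8, Nobox, Figla and Tmc2 are highest at E18.5 among the last 3 stages, while Ccnb3, Gc and Spo11 are near their highest at E16.5 and E17.5 and Stra8, highest at E14.5, is at 35.0 CPM at E17.5.

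The promoters of the oocyte transcription factor genes are shown because these genes were high together in single cells of library 24, as described further on. RefSeq's table (build GRCm38.p6) holds 300 bases around the start that it gives for each, printed 5′ to 3′ on the strand of the gene. For Figla the gene model of GENCODE starts upstream of this window, at 86016171. Capitals mark the E-box motif CANNTG, which basic helix-loop-helix factors such as FIGLA and the SOHLH proteins bind.
Lhx8, chr3:154330511-154330810, minus strand: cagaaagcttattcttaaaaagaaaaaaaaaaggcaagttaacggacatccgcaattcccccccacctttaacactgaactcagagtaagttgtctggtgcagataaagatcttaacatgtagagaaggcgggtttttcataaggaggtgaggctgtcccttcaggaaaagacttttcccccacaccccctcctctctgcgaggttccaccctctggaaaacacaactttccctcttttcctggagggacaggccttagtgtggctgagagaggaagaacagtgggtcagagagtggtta
Nobox, chr6:43309505-43309804, minus strand: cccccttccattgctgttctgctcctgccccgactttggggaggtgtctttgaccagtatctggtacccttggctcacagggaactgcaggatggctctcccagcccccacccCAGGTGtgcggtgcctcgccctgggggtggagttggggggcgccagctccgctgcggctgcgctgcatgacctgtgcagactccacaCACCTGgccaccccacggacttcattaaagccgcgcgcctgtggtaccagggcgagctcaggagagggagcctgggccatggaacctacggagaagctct
Sohlh1, chr2:25847199-25847498, minus strand: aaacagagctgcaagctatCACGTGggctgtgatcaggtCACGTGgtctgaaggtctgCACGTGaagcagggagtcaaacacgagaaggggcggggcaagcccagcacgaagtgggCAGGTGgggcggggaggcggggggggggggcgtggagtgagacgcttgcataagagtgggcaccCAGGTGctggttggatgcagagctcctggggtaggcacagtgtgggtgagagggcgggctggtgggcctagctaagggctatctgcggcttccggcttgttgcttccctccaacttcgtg
Figla, chr6:86016941-86017240, plus strand: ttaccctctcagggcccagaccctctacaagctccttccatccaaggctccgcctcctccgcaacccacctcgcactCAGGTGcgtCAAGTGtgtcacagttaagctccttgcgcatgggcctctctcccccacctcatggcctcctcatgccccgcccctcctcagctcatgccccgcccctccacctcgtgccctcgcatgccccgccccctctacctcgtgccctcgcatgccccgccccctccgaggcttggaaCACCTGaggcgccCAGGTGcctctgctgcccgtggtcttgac

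Counting both strands, CANNTG was found 5 times in the Sohlh1 promoter, 4 times in that of Figla, 2 times in that of Nobox and 0 times in that of Lhx8. Of 27025 promoters of this length in the table, 72.1% held it, with a median of 1 per promoter. The homeodomain motifs TAATTA and TAATTG, of the kind bound by NOBOX and LIM homeodomain proteins, were found in 0 of these 4 windows, and in 5.31% and 8.15% of all promoters. TAATTA and TAATTG share their first letters, and no pair of these motifs can match at the same position. A match is only a run of letters in this window.

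Oocyte transcription factors were higher in library 24 than in library 25. Nobox, an oocyte homeobox gene, had 24.2 and 81.3 CPM at E16.5, 314 and 30.7 CPM in libraries 24 and 25 of E17.5, and 442 and 776 CPM at E18.5. The basic helix-loop-helix gene Sohlh1 had 44.6 and 153 CPM at E16.5, 576 and 64.4 CPM at E17.5, and 676 and 888 CPM at E18.5. Figla, which switches on zona pellucida genes in mice, had 469 and 806 CPM at E16.5, 1152 and 578 CPM at E17.5, and 1089 and 1848 CPM at E18.5. In each of these genes library 25 lay between the E16.5 pools, and library 24 lay above both. Sohlh2 did not follow them, at 177 and 170 CPM in libraries 24 and 25.

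Against both E18.5 pools, both E17.5 pools were lower for 5 of the 7 tested oocyte factors (Nobox, Lhx8, Sohlh1, Foxo3 and Tbpl2, the last at 0 CPM at E17.5). Among all 9997 genes tested, 13.3% were lower in this way. Tbpl2, with no count at E17.5, could only be lower, and Lhx8 was picked as a marker from these data. The 5 of 7 is therefore a description. In the edgeR fit, the E17.5 minus E18.5 log2 fold change was -1.91 ± 0.98 (SE) for Nobox, -1.36 ± 1.15 for Sohlh1 and -0.85 ± 0.53 for Figla, with adjusted p of 0.516, 0.728 and 0.600. Limma called 2 of the 7 lower than at E18.5, beside 1.54% of all genes. They were Nobox, at an adjusted p of 0.0479, and Lhx8, which was picked as a marker from these data, so that its call is no independent evidence. Set against E16.5, the same genes had 1.69 ± 0.98, 1.67 ± 1.16 and 0.43 ± 0.53, each with an edgeR adjusted p of 1. Without library 24 these 3 values turned to -0.82, -0.66 and -0.17, so for these genes the value above E16.5 rested on library 24.

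**Figure D2:**
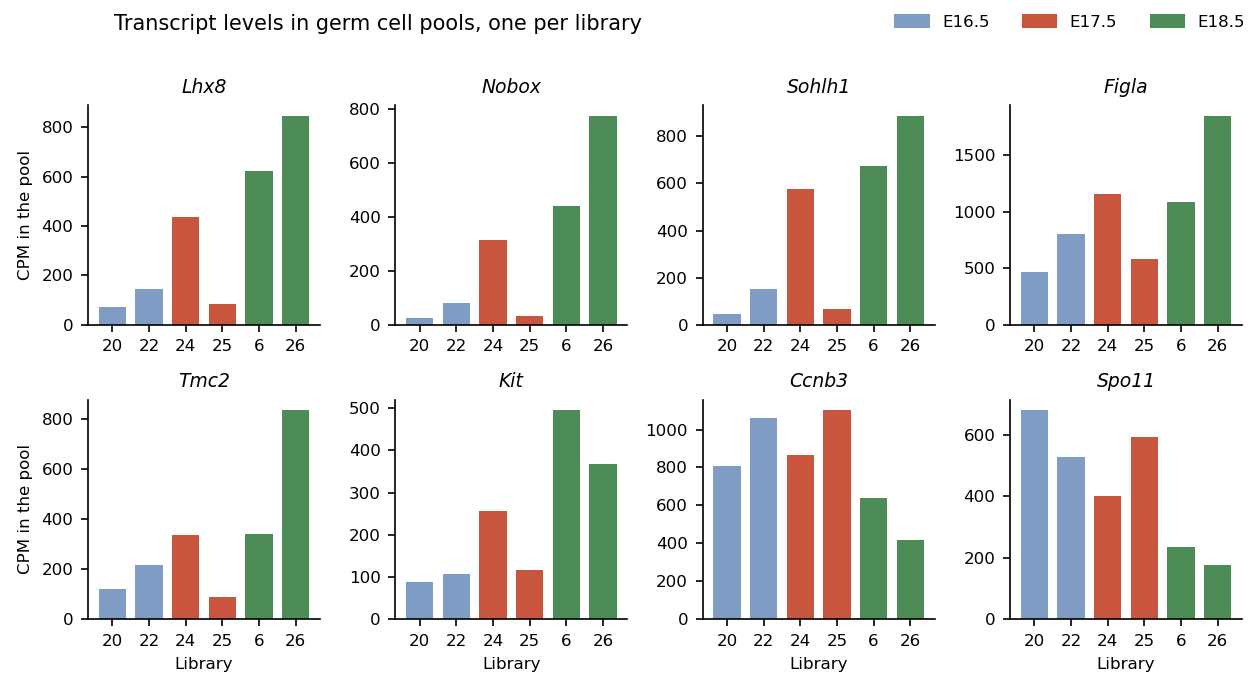
Levels of 8 genes in the germ cell pools, in CPM, with 1 bar per library in stage order (E16.5 blue, E17.5 red, E18.5 green). Library 24 is well above library 25 for the 4 oocyte transcription factors, Tmc2 and Kit, and below it for Ccnb3 and Spo11.

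Single cells showed the same split. Lhx8 had a median of 209 CPM in library 24 (from 0 to 1202 CPM) and of 17.9 CPM in library 25 (from 0 to 685 CPM). At E16.5 it reached 100 CPM in 11 of 74 and 27 of 81 cells. At E17.5 it did so in 44 of 68 cells of library 24 (64.7%, exact 95% interval 52.2% to 75.9%) and in 14 of 69 of library 25 (20.3%, 11.6% to 31.7%), where the intervals cover counting error only. At E18.5 it did so in 62 of 70 and 24 of 25. Lhx8, Nobox, Sohlh1 and Figla all reached 100 CPM in 2 of 74 and 10 of 81 cells at E16.5, in 33 of 68 cells of library 24 and 2 of 69 of library 25, and in 53 of 70 and 23 of 25 at E18.5. Conversely, Lhx8, Nobox and Sohlh1 all stayed below 100 CPM in 6 cells of library 24 and 49 of library 25.

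Germ cell transcripts were also counted in cells sorted as Negative, which gives their level in cells that should lack them. Negative-gate cells at or above the Anxa5 limit, 19 in library 24 and 21 in library 25, had median Lhx8 levels of 40.7 and 0 CPM, at median depths of 142379 and 93983 UMIs. Median levels of Sohlh1 were 267 and 19.2 CPM in the germ cells of libraries 24 and 25, against 84.7 and 0 CPM in these Negative-gate cells. For Figla they were 1126 and 493 CPM in germ cells, against 277 and 91.8 CPM, and for Nobox 129 and 0 CPM, against 40.9 and 0 CPM. The part of this RNA in the levels of single germ cells was not tested. In library 24, 7 of the 19 Negative-gate cells reached 100 CPM for Sohlh1, 19 for Figla, 2 for Lhx8 and 1 for Nobox. In library 25, 9 of 21 did so for Figla and 2 for Sohlh1. In library 6 of E18.5, 18 of 18 did so for Figla, 5 for Sohlh1, 1 for Nobox and 1 for Lhx8. In library 26 of E18.5, 15 of 15 did so for Figla, 13 for Nobox, 11 for Sohlh1 and 3 for Lhx8. So 100 CPM does not mark expression of Figla in a single cell of libraries 24, 6 and 26, nor that of Nobox or Sohlh1 in library 26. It is a weak mark of Sohlh1 in library 24 and of Figla in library 25, where 7 of 19 and 9 of 21 Negative-gate cells reached it. The counts of cells at 100 CPM given above were not corrected for this.

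Dppa3 is the gene behind the Stella reporter used in the sort, so it is given as a description. Its levels were 24.9 and 92.2 CPM at E16.5, 367 and 26.04 CPM in libraries 24 and 25, and 677 and 1383 CPM at E18.5. The median germ cell had 110 and 0 CPM in libraries 24 and 25. In their Negative-gate cells at or above the Anxa5 limit, the medians were 58.9 and 0 CPM. For libraries 6 and 26 of E18.5 the medians were 376 and 1113 CPM in germ cells, against 127 and 481 CPM. In library 26, 15 of 15 such Negative-gate cells reached 100 CPM. The part of this RNA in the germ cell levels of Dppa3 was not tested. In E11.5 germ cells, where Dppa3 marks primordial germ cells, the pools averaged 1655 CPM.

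The tests across all genes asked which transcripts set the E17.5 pools apart from each neighbouring stage. In edgeR's quasi-likelihood test of 9997 genes, with Benjamini-Hochberg adjustment at 0.05, 0 genes (0%) differed between E17.5 and E16.5 and 0 (0%) between E17.5 and E18.5. At an unadjusted p under 0.05 there were 257 genes (2.57%) against E16.5 and 1030 (10.3%) against E18.5. Limma on the mean log2(CPM + 1) of the cells called 7 genes against E16.5 (0.07%, with 0.05% higher and 0.02% lower) and 250 against E18.5 (2.5%), of which 96 (0.96%) were higher and 154 (1.54%) lower at E17.5. DESeq2 called 6 genes against E16.5 (0.0711%, with 0.0592% higher and 0.0118% lower) and 175 against E18.5 (2.14%, with 1.31% higher and 0.831% lower). Against E18.5, 37 genes were called by both limma and DESeq2. With 1 E17.5 library at a time, edgeR called 47 genes against E18.5 without library 24 and 0 without library 25, where the remaining pool is taken to vary as the pools of other stages do. Without library 6 of E18.5 it called 102, and without library 20, 22 or 26 it called 1.

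Since no gene passed the edgeR threshold, the genes named next were picked after their values were seen, from the 10 with the smallest p in each comparison. Against E18.5, M1ap, which mouse males need for meiosis, had 272 and 483 CPM in libraries 24 and 25 of E17.5 and 133 and 111 CPM at E18.5 (log2 fold change 1.60 ± 0.30 SE, edgeR adjusted p = 0.0757). At E16.5 it had 688 and 547 CPM. Both E17.5 pools lay between the other stages, with library 24 nearer to E18.5. Hspb11, a component of the intraflagellar transport machinery, had 523 and 948 CPM at E17.5 and 264 and 217 CPM at E18.5 (1.58 ± 0.31). Sclt1, a centriole protein gene, had 291 and 497 CPM at E17.5 and 168 and 107 CPM at E18.5 (1.499 ± 0.293). Cited1, a transcriptional co-regulator on the X chromosome, had 273 and 484 CPM at E17.5 and 134 and 63.2 CPM at E18.5 (1.94 ± 0.39, edgeR adjusted p = 0.0938). Akap12, a scaffold for protein kinase A, had 15.4 and 3.53 CPM at E17.5 and 102 and 142 CPM at E18.5 (-3.75 ± 0.67, edgeR adjusted p = 0.0757). All 5 pairs of pools were separate, and limma and DESeq2 both called M1ap, Hspb11, Sclt1 and Akap12.

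Against E16.5 8 of these 10 genes had at most 27.9 CPM in either E17.5 pool, and the others were Cpa3 (434 and 0 CPM in libraries 24 and 25) and Phactr3. Elf3, an epithelial ETS factor, had 20.4 and 4.99 CPM in libraries 24 and 25 of E17.5 and 1.25 and 0.33 CPM at E16.5 (3.94 ± 0.86, edgeR adjusted p = 0.567, and called by DESeq2 at an adjusted p of 0.00919). It had 26.1 and 44.0 CPM at E18.5. Tmbim1, a gene of the family of Bax inhibitor motif proteins, had 27.9 and 17.3 CPM at E17.5 and 6.00 and 4.48 CPM at E16.5 (2.11 ± 0.54, edgeR adjusted p = 1, and called by DESeq2 at an adjusted p of 0.0271). Over the 9997 genes, the fold changes had a median of 0.03 (log2) against E16.5 and 0.02 against E18.5.

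A position was then given to each cell between the E16.5 and E18.5 states. Its 126 genes were called in a fit that held no E17.5 pool, with 72 higher and 54 lower at E18.5 among 9899 tested. The score of a cell was the mean log2(CPM + 1) of the first group less that of the second, with 0% at the mean of the E16.5 library medians and 100% at that of E18.5. The median cell of library 24 stood at 47.3% and that of library 25 at 8.11%. Libraries 20 and 22 of E16.5 had medians of -7.87% and 7.87%, and libraries 6 and 26 of E18.5 had 91.0% and 109%. In library 24, 52 of 68 cells lay at or below the highest E16.5 cell, and in library 25 all 69 did. The 72 genes include Cpa3, made by mast cells, and the part of RNA from other cells in these positions was not tested.

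Within library 24 the cells ran from -11.8% to 102%, with quartiles at 34.2% and 61.9%, and 29 of 68 were nearer to E18.5. In library 25 they ran from -25.96% to 55.1%, with quartiles at -2.98% and 17.8%, and 1 of 69 was nearer to E18.5. Of all E17.5 cells, 29 lay between 40% and 60%, close to the midpoint, so the counts to either side depend on where it is put. Cells of 1 library share its handling and are not replicates of the stage. Of the 72 genes higher at E18.5, 67 were higher in library 24 than in library 25, and of the 54 lower at E18.5, 42 were lower, whereas 50.5% of all tested genes were higher in library 24. Among the 67 were Kit, Phactr3 (88.5 and 11.6 CPM in libraries 24 and 25), Wwtr1 (65.3 and 9.73 CPM) and Dusp12 (150 and 9.61 CPM). After the median of each gene in the Negative-gate cells of the same library was subtracted, libraries 24 and 25 stood at 51.1% and 21.2%. Libraries 20 and 22 of E16.5, which set 0%, hold no Negative-gate cells and stayed unchanged. These positions are thus on another scale than the main ones. Without Lhx8, Dppa3 and Cpa3, libraries 24 and 25 stood at 44.4% and 7.65%.

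**Figure D3:**
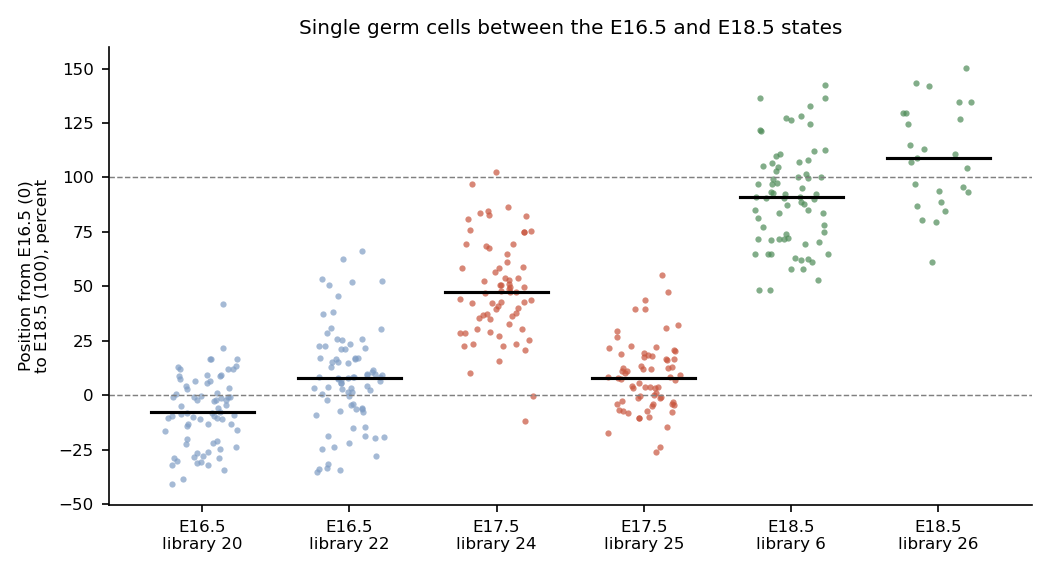
Position of each germ cell between the E16.5 (0) and E18.5 (100) states in percent, by library in stage order, with 1 point per cell and a bar at the median. Library 24 of E17.5 is centred at 47.3% and library 25 at 8.11%, over the cells of E16.5.

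Genes of the zona pellucida and of oocyte growth were mostly lower at E17.5 than at E18.5 and higher in library 24 than in library 25. Both E17.5 pools were below both E18.5 pools for 12 of 15 tested members, against 13.3% of all genes, and above both E16.5 pools for 2, against 17.1% of all genes. The list's fold changes against E18.5 had a median of -2.49 (log2), and 0 members passed the edgeR test in either comparison. Limma called 6 lower than at E18.5 (Zp2, Mos, Gja4, Padi6, H1foo and Kit) and DESeq2 called Kit. The calls of Zp2, Mos, Padi6 and H1foo carry the same limit of the filter. All 5 members with at least 20 CPM in an E17.5 pool were at least 2-fold higher in library 24, where 8.74% of all genes were (Kit, Tle6, Uchl1, Gja4 and Dppa3, the last a gene of the sort). Gja4 reached 20 CPM only in library 24 (43.6 and 2.31 CPM in libraries 24 and 25), so its direction was fixed by this filter. Zp2, a zona pellucida glycoprotein gene, had 1.75 and 0.17 CPM at E16.5, 18.2 and 0 CPM in libraries 24 and 25, and 127 and 121 CPM at E18.5. Zp3, another such gene, had 6.01 and 3.41 CPM in libraries 24 and 25, above 0.12 and 0 CPM at E16.5.

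Kit, the receptor for stem cell factor that oocytes use for growth, had 87.6 and 107 CPM at E16.5, 257 and 116 CPM at E17.5, and 496 and 369 CPM at E18.5. Its pools were separate in both comparisons, with log2 fold changes of 0.93 ± 0.35 (edgeR adjusted p = 1) and -1.24 ± 0.35 (edgeR adjusted p = 0.201), and limma called the second at an adjusted p of 0.0485. Uchl1, a ubiquitin hydrolase abundant in oocytes, had 158 and 431 CPM at E16.5, 813 and 171 CPM at E17.5, and 1125 and 1363 CPM at E18.5. Gja4, the connexin between oocyte and granulosa cells, had 2.12 and 7.46 CPM at E16.5, 43.6 and 2.31 CPM at E17.5, and 95.7 and 171 CPM at E18.5. Library 25 lay within the E16.5 range for both of these genes.

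Nlrp5, a maternal effect gene of the subcortical complex of oocytes, was far below its E18.5 level. It had 3.00 and 2.82 CPM at E16.5, 15.02 and 2.19 CPM in libraries 24 and 25, and 151 and 288 CPM at E18.5 (E17.5 minus E18.5 log2 fold change -4.76 ± 1.10, edgeR adjusted p = 0.119, limma and DESeq2 calling it). Padi6, of the same complex, had 1.502 and 0 CPM in libraries 24 and 25 and 18.6 and 72.6 CPM at E18.5. Of the 5 tested Nlrp genes, 3 were below both E18.5 pools, where 13.3% of all genes were. However, 0 of them reached 20 CPM in an E17.5 pool, and 4 of the 10 measured Nlrp genes had no count at E17.5. A gene that passes the low-count filter through its E18.5 level can hardly be other than lower at E17.5. The 3 of 5 is therefore a description.

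Recombination genes formed the opposite pattern. Both E17.5 pools were above both E18.5 pools for 8 of 12 tested members, where 21.4% of all genes were, and the median log2 fold change against E18.5 was 0.65. Against E16.5 the median was -0.11, with 1 member above and 2 below both pools, where 17.1% and 14% of all genes were. Spo11, the enzyme that cuts DNA to start recombination, had 681 and 528 CPM at E16.5, 399 and 593 CPM in libraries 24 and 25, and 235 and 178 CPM at E18.5 (E17.5 minus E18.5 log2 fold change 1.24 ± 0.43, edgeR adjusted p = 0.331). Library 25 was within the range of E16.5 and library 24 between the stages.

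Hfm1, a helicase needed for crossovers in mice, had 473 and 787 CPM in libraries 24 and 25 of E17.5 and 391 and 215 CPM at E18.5. Mcmdc2, an MCM-like protein for meiotic break repair, had 74.5 and 157 CPM at E17.5 and 40.7 and 22.2 CPM at E18.5 (1.87 ± 0.49, edgeR adjusted p = 0.135). Brca2, which loads recombinases on DNA, had 692 and 861 CPM at E17.5 and 626 and 329 CPM at E18.5 (0.70 ± 0.27, edgeR adjusted p = 0.387). Rnf212, a regulator of crossover number, was alone in the list in lying above both neighbours, with 292 and 300.4 CPM at E16.5, 363 and 338 CPM at E17.5, and 249.5 and 169 CPM at E18.5. Limma called M1ap and Mcmdc2 higher than at E18.5 and called 0 members lower.

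Sycp1, the transverse filament of the synaptonemal complex, had 2671 and 3018 CPM at E16.5, 2659.9 and 2666 CPM at E17.5, and 2147 and 2457 CPM at E18.5. Sycp3, of the lateral element, had 447 and 407 CPM in libraries 24 and 25, within the ranges of both neighbours. Hormad1, which marks unsynapsed axes, had 1149.9 and 1267 CPM at E17.5 and 783 and 910.04 CPM at E18.5. The meiotic cohesin gene Stag3 had 256 and 495 CPM in libraries 24 and 25, and was lower in library 24 than in either E16.5 pool. Of the 7 tested members of the synaptonemal complex and cohesin list, 0 were 2-fold apart between the E17.5 libraries, where 15.9% of all genes were, and 0 passed the edgeR test.

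**Figure D4:**
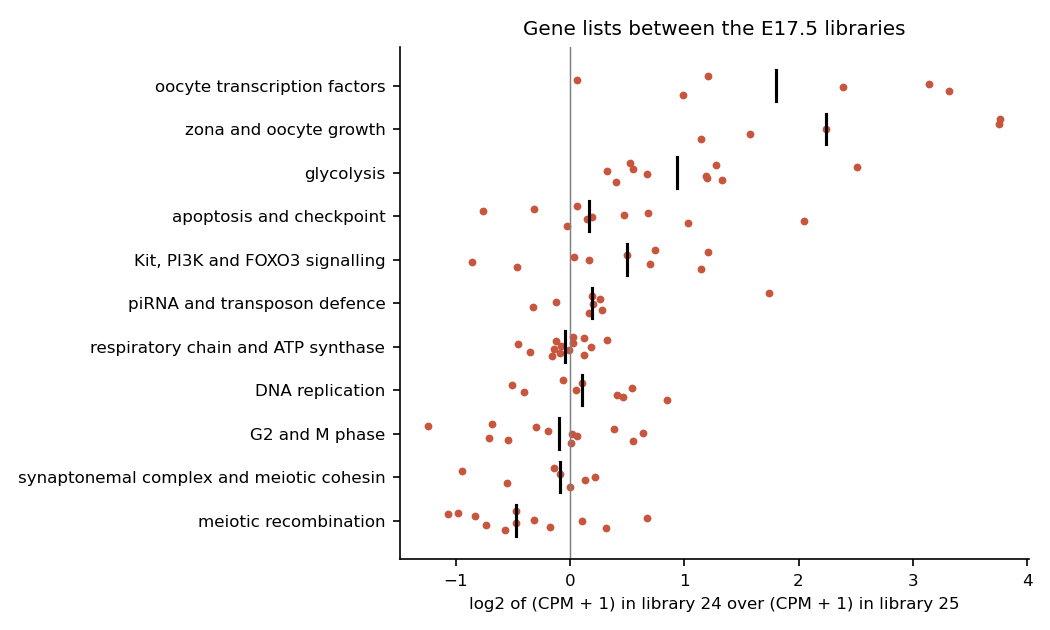
Log2 ratio of library 24 to library 25 of E17.5 for the members of 11 gene lists with at least 20 CPM in either pool, with 1 point per gene, a bar at the median and a line at 0. Oocyte factors and growth genes lie to the right and most recombination genes to the left of 0, and respiratory chain genes gather around it.

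Several glycolysis genes were also higher in library 24. Of 10 members with at least 20 CPM in either pool, 5 were at least 2-fold higher in library 24 and 0 were 2-fold lower, beside 8.74% and 7.19% of all genes. Ldha, which converts pyruvate to lactate, had 120 and 64.0 CPM at E16.5, 254 and 43.7 CPM in libraries 24 and 25, and 86.1 and 137 CPM at E18.5. Aldoa had 295 and 128 CPM in them, and 251 and 118 CPM at E16.5. For these genes the 2 libraries of E16.5 were apart as well, and the list's median log2 fold change against E16.5 was 0.02. Ldhb, the other lactate dehydrogenase subunit, had 143 and 58.3 CPM at E17.5 and 234 and 503 CPM at E18.5 (-1.97 ± 0.58, edgeR adjusted p = 0.227). Respiratory chain and ATP synthase genes had 0 of 14 members 2-fold apart between libraries 24 and 25.

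The summed level of the piRNA and transposon defence list was 3517 and 3152 CPM in libraries 24 and 25, with 3107 and 3368 CPM at E16.5. Its member Tdrd12, a piRNA factor, was above both neighbours, with 70.2 and 75.6 CPM at E16.5, 159 and 133 CPM at E17.5, and 94.8 and 67.9 CPM at E18.5 (log2 fold changes 1.00 ± 0.37 and 0.82 ± 0.37, edgeR adjusted p = 1 and 0.454). Among apoptosis and checkpoint genes, Bax and Bid, which permeabilize mitochondria, had 580 and 283 CPM and 123 and 29.1 CPM in libraries 24 and 25, and both were 2-fold higher in library 24. They were the only 2 to be so of 10 members with at least 20 CPM in either pool. Of these 10, 0 were 2-fold lower, where 8.74% of all genes were higher and 7.19% lower. Chek2, the checkpoint kinase, had 41.9 and 42.7 CPM.

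In the cell cycle lists, 0 of 9 replication genes and 1 of 12 genes of G2 and M phase were 2-fold apart between the E17.5 libraries, where 15.9% of all genes were. The 1 was Mki67, at 96.6 and 229 CPM in libraries 24 and 25. Bub1, a spindle checkpoint kinase, had 399.6 and 582 CPM at E17.5 and 352 and 216 CPM at E18.5 (0.77 ± 0.24, edgeR adjusted p = 0.269). In the Kit, PI3K and FOXO3 list, Foxo3, which holds primordial follicles dormant, had 96.5 and 117 CPM at E16.5, 195 and 83.6 CPM in libraries 24 and 25, and 390 and 210.01 CPM at E18.5. Notch1, a receptor of the Notch pathway, had 19.9 and 62.2 CPM at E17.5 and 9.81 and 2.13 CPM at E18.5 (2.74 ± 0.72, edgeR adjusted p = 0.136).

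Genes of earlier germ cells were mostly low, with 3 of 10 tested members at 20 CPM or more in an E17.5 pool. The list's median log2 fold change was 0.51 against E16.5 and 0.59 against E18.5. Both E17.5 pools were above both E16.5 pools for 3 members and below them for 1, Stra8, where 17.1% and 14% of all genes were. They were above both E18.5 pools for 4 and below them for 0, where 21.4% and 13.3% of all genes were. Stra8 thus does not stand for the list. Stra8, which mouse germ cells need to enter meiosis, had 166 and 144 CPM at E16.5, 20.3 and 49.8 CPM in libraries 24 and 25, and 0.096 and 19.2 CPM at E18.5. The E17.5 pools were separate from both neighbours, with log2 fold changes of -2.15 ± 0.88 against E16.5 (edgeR adjusted p = 1) and 2.09 ± 1.01 against E18.5 (edgeR adjusted p = 0.488). Nanog, a pluripotency factor, had 18.2 CPM in library 24 and 0.85 CPM in library 25. In the DNA methylation list, Dnmt3l, a cofactor of de novo methylation in germ cells, had 15.4 and 2.92 CPM, and Tet3, which oxidizes methylcytosine, had 138 and 61.6 CPM in libraries 24 and 25.

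Some genes stood outside both neighbours in both E17.5 libraries. Of 5689 genes with at least 20 CPM in a pool, 255 (4.48%) were above all 4 pools of E16.5 and E18.5 and 130 (2.29%) below all 4, and 0 of them passed the edgeR test in either comparison. The gap to the nearest pool was at least 2-fold for 1 and 6 of them. The 1 was Esyt1, a tether between endoplasmic reticulum and plasma membrane, with 20.4 and 12.9 CPM at E16.5, 77.2 and 46.2 CPM at E17.5, and 12.7 and 2.56 CPM at E18.5. Rab35, a small GTPase of endosomes, was among the 6, with 17.1 and 25.05 CPM at E16.5, 8.39 and 5.96 CPM at E17.5, and 64.7 and 37.1 CPM at E18.5. These genes were chosen after their values were seen.

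Cells of library 24 differed among themselves along the oocyte program. Across its 68 cells, 4709 genes were ranked by Spearman correlation of their CPM with Lhx8, as a description of cells that share a library and differ in depth. Among the highest were Sohlh1 (0.80), Vkorc1 of the vitamin K cycle (0.76), Uchl1 (0.70), Figla (0.69) and D10Wsu102e (0.69), and Nobox had 0.68. The median gene had 0.05, and depth itself had 0.24. At the other end were the meiotic axis gene Hormad1 (-0.58), the histone variant gene H2afz (-0.50), Ccnb3 (-0.49), Mcmdc2 (-0.47) and Brca2 (-0.47). Cells with much Lhx8 thus held less of several meiotic prophase transcripts within the same library.

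In library 25 the same ranking over 4663 genes and 69 cells reached only 0.49 (Zfp74). The values were 0.34 for Figla, 0.32 for Uchl1, 0.31 for Nobox and 0.25 for Sohlh1, and -0.30 for Hormad1 and -0.27 for Ccnb3. The signs were those of library 24 and the sizes were smaller, where 14 of 69 cells had at least 100 CPM of Lhx8.

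**Figure D5:**
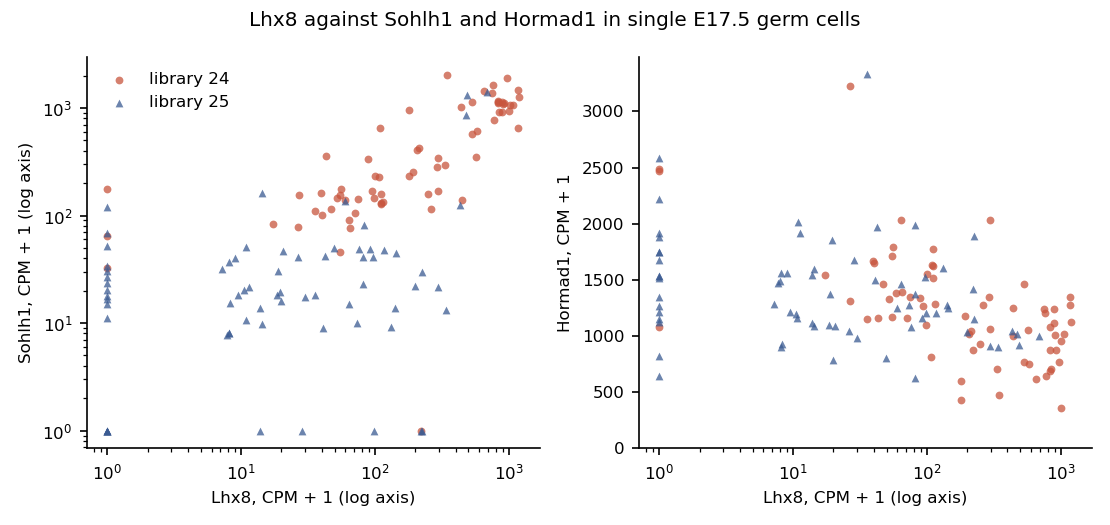
Lhx8 against Sohlh1 (left) and Hormad1 (right) in single E17.5 germ cells, in CPM + 1 with log axes for Lhx8 and Sohlh1, with library 24 as red circles and library 25 as blue triangles. Lhx8 and Sohlh1 are high together in library 24 (rho 0.80), and Hormad1 is lower in its cells with more Lhx8 (rho -0.58).

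In principal components of the 1000 most variable genes over all 137 cells, the first held 6.97% of the variance and followed depth, with a Spearman correlation of 0.84 with UMIs and 0.92 with genes detected. The second held 5.65% and followed UMIs at 0.01. It was above 0 in 61 of 68 cells of library 24 and in 4 of 69 of library 25. Its leading genes were Cpa3, Dppa3, Nobox, Srgn, Cd55, Sohlh1 and Lhx8. Cpa3 and Srgn, made by mast cells, thus led it together with the oocyte genes.

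Cpa3, a mast cell carboxypeptidase, was in every one of the 68 germ cells of library 24, from 154 to 968 CPM with a median of 426 CPM, and had no count in the 69 of library 25. It was at 0 in E16.5 germ cells and had medians of 103 and 9.85 CPM in libraries 6 and 26 of E18.5. The Negative-gate cells of library 24 at or above the Anxa5 limit had a median of 394 CPM, near that of the germ cells. Srgn had 80.9 and 4.87 CPM in the germ pools of libraries 24 and 25. The summed level of the 7 measured immune markers was 3.87 and 4.48 CPM at E16.5, 57.3 and 5.35 CPM in libraries 24 and 25, and 37.0 and 41.8 CPM at E18.5, and in libraries 24 and 25 it came from Fcer1g (32.8 and 2.07 CPM), Tyrobp (15.6 and 1.095 CPM), Laptm5 (8.51 and 2.19 CPM) and Ptprc (0.38 and 0 CPM). The macrophage genes C1qa, C1qb and C1qc were at 0 in both.

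Markers of other cell types differed by library. The sum of 9 pregranulosa markers was 476 and 272 CPM at E16.5, 370 and 232 CPM in libraries 24 and 25, and 190 and 71.3 CPM at E18.5, and 6 of the 9 were above both E18.5 pools, against 21.4% of all genes. That of 7 stroma markers was 63.8 and 106 CPM in libraries 24 and 25, of 2 surface epithelium markers 9.26 and 3.16 CPM, of 5 endothelial markers 13.3 and 13.3 CPM, and of 5 erythroid markers 205 and 77.1 CPM. The erythroid sum was 125 and 33.8 CPM at E16.5 and 39.7 and 1096 CPM at E18.5, the last in library 26. Hbb-y, an embryonic globin gene, had 0 and 53.3 CPM in them. Immediate early genes, which respond to dissociation, summed to 581 and 298 CPM at E16.5, 320 and 178 CPM in libraries 24 and 25, and 85.3 and 200 CPM at E18.5. The part of these transcripts in the differences between libraries and stages was not tested. The X-linked share of UMIs was 8.32% and 8.86% at E16.5, 8.64% and 8.50% in libraries 24 and 25, and 8.10% and 8.31% at E18.5.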

How the data were processed

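The deposited table holds counts of UMIs per gene and cell, which the authors made with a form of STRT-seq that sequences 3' ends, per the labels' protocols. The tools were CASAVA 1.8, STAR, Subread, featureCounts and UMI-tools and the build mm10, per the submitters' processing notes. For strand and filters, the sources used here give nothing. The table read ended within a line, and its 16344 complete genes, of which 2248 had no UMI, hold a median of 51.1% (46.9% to 52.4%) of the deposited UMIs of an E17.5 germ cell. CPM refers to these genes, and genes outside them were not analysed here. The stage, gate and library of a cell came from the deposited cell table, and libraries were numbered in accession order.

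Germ cells were summed per library and stage into 18 pools of at least 5 cells (2342743 to 14048285 UMIs). Libraries were the replicates. All stages shared a fit in edgeR 4.0.16 (R 4.3.3; quasi-likelihood test, TMM scaling, filterByExpr, Benjamini-Hochberg at 0.05), tested on simulated data. Alternatives used limma 3.58.1 and DESeq2 1.42.0. An exact permutation test of 2 against 2 pools cannot go below p = 0.333, so none is given. Libraries of E16.5, E17.5 and E18.5 differed within each stage by more than sampling noise. Names of 16252 genes matched GENCODE positions of GRCm38.

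The members, markers and gene lists were chosen with earlier results of these data known. The rule for named genes (the 10 largest folds each way among genes past the threshold with separate pools, and called list members) named none, and the text says where genes were chosen by their values. Doublets were not called, as each cell was picked by mouth.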

Additional observations from a re-analysis of the deposited data

Results flagged for a closer look

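Signals outside the germ cells appeared in the Negative-gate cells of the E17.5 libraries, which enter none of the tests between stages. One Negative-gate cell of library 24 held 9063 CPM of Cpa3, the next highest cell of that library 1461 CPM, and every one of its 95 cells at least 91.4 CPM, while all 93 cells of library 25 were at 0. Cpa3 was likewise in every one of 47 cells of library 23 (E16.5, Negative gate), where the highest had 13056 CPM. The germ cell gene Sycp1 had medians of 2752 and 2918.5 CPM in the germ cells of libraries 24 and 25. In the Negative-gate cells of the same libraries at or above the Anxa5 limit, the medians were 538 and 531 CPM. Libraries 21 and 23 (E16.5) hold no cells of the BVSC gate. In their Negative-gate cells at or above that limit, the medians were 124 and 0 CPM, and the highest of these cells had 3753 and 397 CPM.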

How the results depend on the processing

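Against E16.5, the count of genes called (0) became 19 with no filter on low counts, 6 in DESeq2, 7 in limma and 0 to 2 when each library was left out in turn (2 without library 25). Against E18.5, the count (0) became 8 with upper-quartile scaling, 184 with no filter, 1 with no Anxa5 limit, 4 after thinning all pools to 2342743 UMIs, 175 in DESeq2, 250 in limma, and 0 to 102 when each library was left out. Genes called highest or lowest at E17.5 (0) became 6 with no filter, 1 in DESeq2 and 3 in limma. When each library was left out in turn, log2 fold changes against E16.5 ran from -0.82 to 2.82 for Nobox, from -0.66 to 2.83 for Sohlh1, from -0.17 to 0.87 for Figla and from 0 to 14.94 for Cpa3 (a fitted value against pools with no count), each lowest without library 24. With no Anxa5 limit that of Tmem37 against E18.5 turned to -2.27. Apart from the leave-one-out values, whose construction has fewer samples, the cause was not tested. Pools with the same deposited replicate number showed no shared deviation between stages (correlations of deviations -0.039, -0.024 and -0.044). This cannot show that samples are unpaired, since a pairing need not shift all genes alike. With the deposited replicate number as a replicate block, 0 and 0 genes were called. Median axis positions ranged from 41.4% to 51.1% in library 24 and from 7.65% to 21.2% in library 25. The 51.1% and 21.2% came from the subtraction of Negative-gate medians, in which the E16.5 libraries stayed unchanged. The replicate block and the last 2 axis alternatives, on Negative-gate medians and named genes, were chosen after seeing the data.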
